A study of Homo sapiens with 15 samples.

Results

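The genes described here are 8 genes of the machinery that drives cells into and out of mitosis: the cyclins CCNA2 and CCNB2, the phosphatase CDC25C, the small CDK-binding proteins CKS1B and CKS2, the APC/C activator CDC20, the mitotic entry factor CDCA3 and the G2 and S phase gene GTSE1. They were chosen by name, as the probe sets whose gene symbol on the platform is one of these 8, out of 14675 genes measured under a symbol. Each had exactly 1 probe set. Their transcripts were followed in H1975, an established human lung adenocarcinoma cell line, on 15 Affymetrix Human Gene 2.0 ST arrays. All cells had been kept overnight in medium without serum before EGF (epidermal growth factor, 50 ng/ml) was added in that medium. The arrays were taken at 0.5 h (n = 2), 1, 2, 4, 6, 8, 12 and 18 h (n = 1 each), and 24 h and 48 h (n = 3 each) after EGF. Unstimulated cells were not analysed here, so that hours of EGF and hours without serum cannot be told apart. The listed harvest times of the protocol do not include 18 h, and that array was used as labelled.

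Levels are SCAN scores, which the authors computed for each array on its own. The score is on a log scale of unknown base and standardised within the array, so that differences are given in score units and not as folds, and one gene's level is not set against another's. Array medians lay between 0.0644 and 0.0789, and 0 pairs of arrays held the same values. Of 10 epithelial and lung adenocarcinoma markers 8 were measured, from SFTPB (0.081 to 0.34) to KRT18 (2.83 to 2.97). At 48 h 5 of these 8 were called higher than at 0.5 h, where 15.5% of all genes were, with NAPSA higher by 1.24. KRT7 was called lower by 0.17, where 13.1% of all genes were called lower. Of the markers of other cell types CD14 of blood cells, DCN and LUM of fibroblasts and VWF of endothelium were measured, and all 4 stayed between -0.13 and 0.17, with CD14 lower by 0.11 at 48 h than at 0.5 h (adjusted p = 0.025). The part of these markers in the results was not tested. A gene was called changed at a Benjamini-Hochberg adjusted p under 0.05 over all 14675 genes, with limma. The labels do not say that arrays of the same time came from separate cultures, so p-values measure the spread between arrays, which may be technical.

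Entry into mitosis is driven by the kinase CDK1 bound to a cyclin of the A or B type. WEE1 and MYT1 hold this kinase inactive by phosphorylation, the CDC25 phosphatases release it, and CKS proteins dock the complex on substrates that are already phosphorylated. The anaphase-promoting complex (APC/C), activated by CDC20, then marks cyclins and securin for destruction, which ends mitosis. Transcripts of many of these genes are highest in G2 and M phase and are repressed in resting cells by the DREAM complex, which contacts promoters at CHR elements. In a culture of many cells, fewer cells in G2 and M and less of the transcript in each cell cannot be told apart.

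All 8 genes were lower at 48 h than at any earlier time, and most of that fall came during the second day. The 3 arrays of 48 h lay below every other array for each of the 8 genes, a pattern found in 6.71% of all genes. Between 0.5 h and 12 h their scores stayed within a range of 0.084 (CCNB2) to 0.19 (CDC20 and CDC25C). The mean of the 8 genes relative to 0.5 h was 0.024 at 1 h, -0.018 at 2 h, 0.059 at 4 h, 0.051 at 6 h, 0.011 at 8 h, 0.040 at 12 h, -0.20 at 18 h, -0.12 at 24 h and -0.65 at 48 h. The mean thus stayed between -0.018 and 0.059 through 12 h, while single genes varied more. It was lower on the single 18 h array, slightly less low at 24 h and far lower at 48 h.

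**Figure D1:**
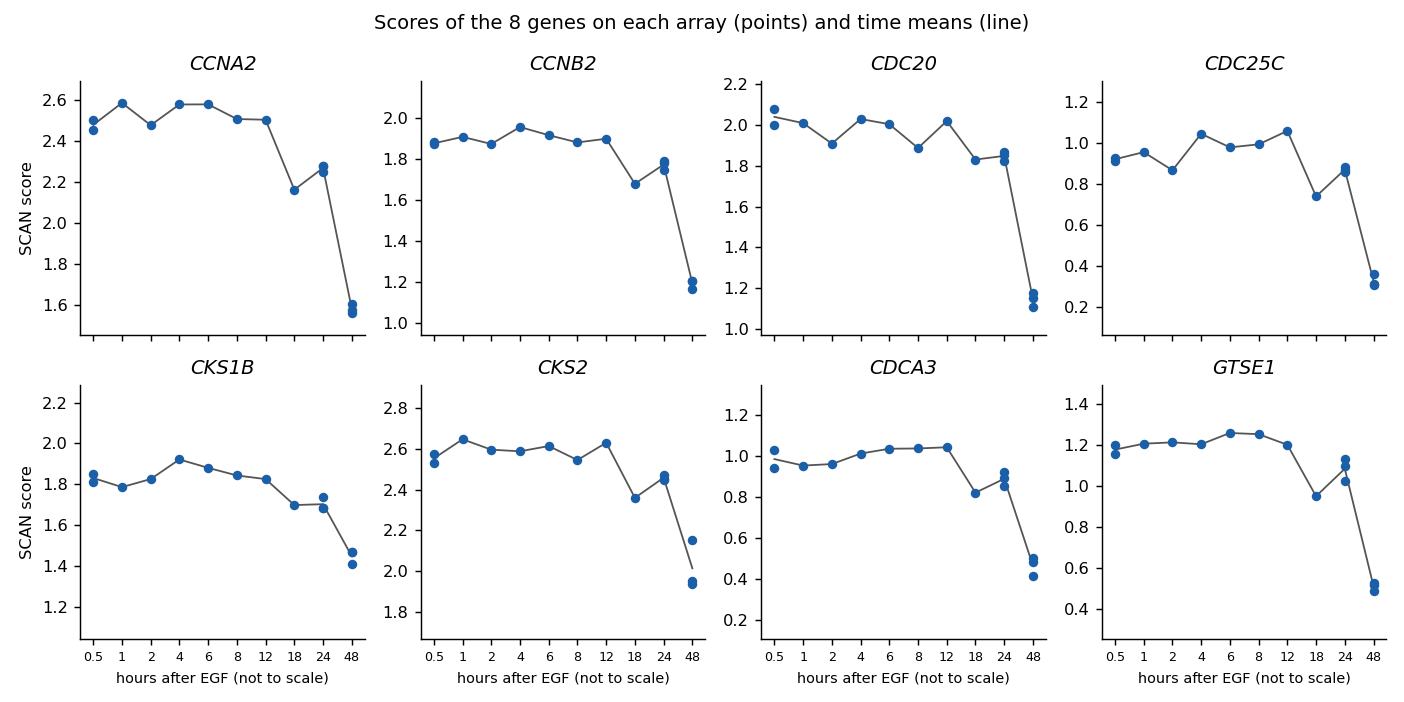
Scores of the 8 genes (vertical axis, SCAN score, each panel spanning the same number of units) against hours after EGF (horizontal axis, equal spacing). Points are arrays and the line joins time means. The 8 arrays of 0.5 to 12 h span 0.084 (CCNB2) to 0.19 (CDC20 and CDC25C) units, and the 3 arrays of 48 h are the lowest in each panel.

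The promoters of the genes were read because their transcripts moved together. The sequences come from RefSeq (build GRCh38.p14), as windows of 250 bases before to 50 bases after each annotated start, and all 8 genes had an entry. CDC25C had 4 such windows from different annotated starts, which overlap in pairs, so 11 windows were read. Searched on both strands were CCAAT, the box bound by NF-Y, and TTTGAA and TTCGAA, forms of the CHR element; a CCAAT and a TTTGAA can share at most 1 base. CCAAT was found in at least 1 window of 8 of 8 genes, against 34.6% of 35114 windows of all genes. TTTGAA was found in 7 of 8 genes, all but CCNA2, against 15.2% of all windows, and TTCGAA in 0 of 8 against 1.45%. Both kinds together were present in 7 of 8 genes, against 6.38% of all windows. These shares compare genes with windows, and a match of letters is a description, not a bound site. Other forms of the CHR element were not searched, so a gene without a match may still hold one.

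Printed here are 160 bases (130 before to 30 after the start) of the cyclin, CDC20, CDC25C and CKS promoters, to show how CCAAT and TTTGAA are placed; capitals mark CCAAT and TTTGAA, or their reverse complements ATTGG and TTCAAA, and each runs 5′ to 3′ on the strand of its gene. CCNA2 is at chr4:121823854-121824013 (minus strand), CCNB2 at chr15:59105016-59105175 (plus strand), CDC20 at chr1:43358851-43359010 (plus strand), CDC25C, at 1 of its 4 starts, at chr5:138331775-138331934 (minus strand), CKS1B at chr1:154974551-154974710 (plus strand) and CKS2 at chr9:89311065-89311224 (plus strand).
CCNA2: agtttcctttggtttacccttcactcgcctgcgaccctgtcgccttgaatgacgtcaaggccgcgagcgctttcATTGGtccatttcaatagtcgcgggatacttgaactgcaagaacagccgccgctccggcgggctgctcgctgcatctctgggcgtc
CCNB2: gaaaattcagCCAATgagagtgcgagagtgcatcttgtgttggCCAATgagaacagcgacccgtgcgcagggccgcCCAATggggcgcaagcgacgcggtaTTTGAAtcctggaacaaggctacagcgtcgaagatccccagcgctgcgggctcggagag
CDC20: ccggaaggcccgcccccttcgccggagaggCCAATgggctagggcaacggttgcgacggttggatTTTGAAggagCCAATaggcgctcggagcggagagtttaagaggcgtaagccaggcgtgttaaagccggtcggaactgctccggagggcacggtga
CDC25C: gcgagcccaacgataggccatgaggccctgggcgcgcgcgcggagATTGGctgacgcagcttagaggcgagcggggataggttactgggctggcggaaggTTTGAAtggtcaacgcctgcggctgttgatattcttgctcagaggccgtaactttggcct
CKS1B: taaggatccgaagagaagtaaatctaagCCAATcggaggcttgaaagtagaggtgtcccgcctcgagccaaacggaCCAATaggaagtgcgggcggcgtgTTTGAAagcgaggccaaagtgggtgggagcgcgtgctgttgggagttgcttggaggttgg
CKS2: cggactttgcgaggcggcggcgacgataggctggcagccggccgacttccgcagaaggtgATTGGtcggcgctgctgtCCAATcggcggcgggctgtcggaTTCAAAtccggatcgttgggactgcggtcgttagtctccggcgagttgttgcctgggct

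In CCNB2, CKS1B and CKS2 the hexamer began at base -29, -30 and -29 from the start, and the nearest CCAAT before it at -54, -54 and -52. The hexamer of CKS2 was on the opposite strand, unlike those of CCNB2 and CKS1B. In the CDC25C window shown, the hexamer began at -30 and the CCAAT, on the opposite strand, at -85. In CDC20 the order differed, with a hexamer at -65 between CCAAT boxes at -100 and -55. A further hexamer of CDC20, on the opposite strand, began at -178, outside the bases printed. CCNA2 had a CCAAT, on the opposite strand, at -56 and no match to TTTGAA or TTCGAA. Whether it holds another form of the CHR element was not searched. CDCA3 had a CCAAT at -37 and the hexamer at -3, and GTSE1 the hexamer, on the opposite strand, at -26 and a CCAAT at -16. CKS1B held the most CCAAT boxes, 5 in its window, and CCNB2 had 4.

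**Figure D2:**
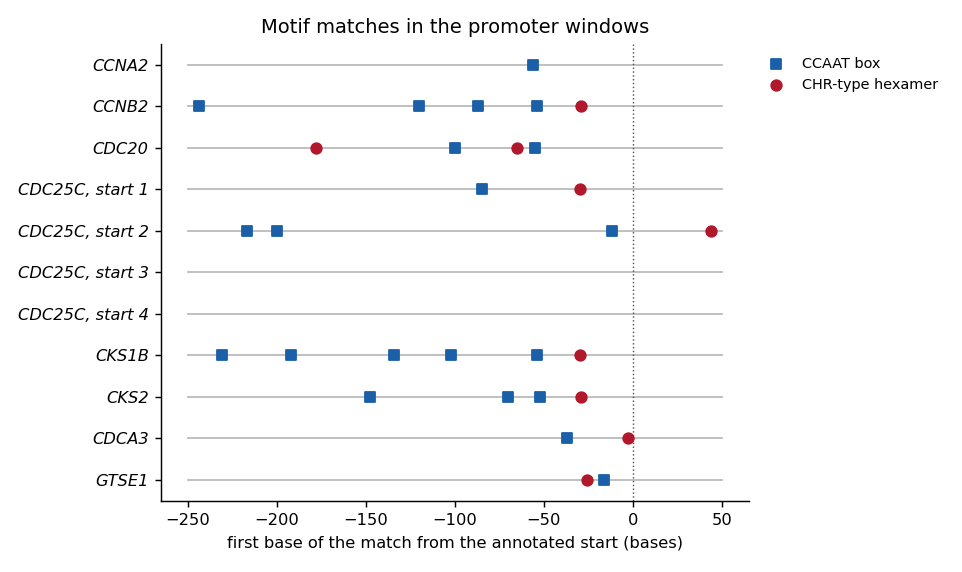
Positions of CCAAT (squares) and TTTGAA (circles) in the 11 promoter windows of the 8 genes, on either strand; the horizontal axis gives bases from the annotated start. In CCNB2, CKS1B, CKS2 and the first CDC25C window the hexamer begins at -29 or -30, with CCAAT boxes further upstream.

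Against 0.5 h, limma called 8 of 8 genes lower at 48 h, where 13.1% of all genes were called lower and 15.5% higher. Their median difference was -0.63, against 0.0013 over all genes, and adjusted p-values lay between 2.5e-13 and 8.6e-08. CCNA2 had the largest fall of the 8 and the 14th largest of all genes, and CKS1B the smallest. All 8 calls held in each alternative processing tried. At 24 h, 4 of 8 were called lower than at 0.5 h, where 7.26% of all genes were, with a median difference of -0.10 against 0.0030 over all genes. At 48 h against 24 h, 8 of 8 were called lower, where 6.68% of all genes were, with a median of -0.56 against -0.00058.

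CCNA2 encodes cyclin A2, which partners CDK2 in S phase and CDK1 in G2. It scored 1.56, 1.60 and 1.58 at 48 h, 2.28, 2.25 and 2.28 at 24 h, and 2.50 and 2.46 at 0.5 h. The arrays of these 3 times did not overlap, and 24 h lay between the others. With 2 arrays at 0.5 h and 3 at 24 h such a separation can arise by chance. Its share of all genes was not counted, here or for the genes below. CCNA2 was lower by 0.90 ± 0.030 at 48 h than at 0.5 h (SE; adjusted p = 2.5e-13). On the way it stayed at 2.59 at 1 h, 2.48 at 2 h, 2.58 at 4 h, 2.58 at 6 h, 2.51 at 8 h and 2.51 at 12 h, and the 18 h array read 2.16, below all 3 arrays of 24 h. Its 24 h difference from 0.5 h, -0.21 ± 0.030, was the largest of the 8 genes (adjusted p = 8.3e-05).

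CCNB2 encodes cyclin B2, an activating partner of CDK1 that sits largely at the Golgi apparatus. It scored 1.21, 1.20 and 1.17 at 48 h, 1.75, 1.79 and 1.78 at 24 h, and 1.88 and 1.87 at 0.5 h. Again no array of one of these times reached another time. Its range over the 8 arrays of 0.5 to 12 h was the narrowest, from 1.87 to 1.96. CCNB2 was lower by 0.68 ± 0.030 at 48 h than at 0.5 h (adjusted p = 4.6e-12) and by 0.58 ± 0.027 than at 24 h. Its 24 h difference from 0.5 h, -0.10 ± 0.030 (adjusted p = 0.022), was no longer called without either 0.5 h array or without replicate 1 of 24 h (adjusted p = 0.130, 0.0866 and 0.0783).

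CDC25C encodes the phosphatase that removes the inhibitory phosphates from CDK1 at mitotic entry. It scored 0.31, 0.31 and 0.36 at 48 h, 0.87, 0.89 and 0.86 at 24 h, and 0.93 and 0.91 at 0.5 h. The 24 h arrays all lay below the 0.5 h arrays, but by little, and the 48 h arrays lay far below both. The difference between 24 h and 0.5 h, -0.051 ± 0.030, did not pass (adjusted p = 0.29), whereas the 48 h score was lower than that of 24 h by 0.55 ± 0.027 (adjusted p = 5.3e-11). In this gene 91.5% of the difference between 48 h and 0.5 h fell between 24 h and 48 h, the largest share of the 8. CDC25C was also the gene with the most rise before the fall, at 1.05 at 4 h and 1.06 at 12 h. The 12 h array was higher than 0.5 h by 0.14 ± 0.040 (adjusted p = 0.069), which passed only where arrays were centred on their medians (adjusted p = 0.044).

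CKS1B and CKS2 encode the human CKS proteins, which bind CDKs, and CKS1B also serves the SCF-SKP2 ligase in the destruction of the CDK inhibitor p27. CKS1B scored 1.41, 1.47 and 1.47 at 48 h, 1.74, 1.68 and 1.69 at 24 h, and 1.85 and 1.81 at 0.5 h. CKS2 scored 1.94, 1.95 and 2.16 at 48 h, 2.47, 2.45 and 2.45 at 24 h, and 2.58 and 2.53 at 0.5 h. In neither gene did the 3 times overlap, but replicate 3 of 48 h stood apart in CKS2, where the standard deviation at 48 h was 0.12 (n = 3) against 0.013 at 24 h (n = 3). CKS1B had the smallest fall of the 8 at 48 h, -0.38 ± 0.032 against 0.5 h (adjusted p = 3.8e-08), and that of CKS2 was -0.54 ± 0.048 (adjusted p = 8.6e-08). At 24 h CKS1B was called lower than at 0.5 h (-0.13 ± 0.032, adjusted p = 0.0089), but not without replicate 1 of 0.5 h (adjusted p = 0.110). The CKS2 difference of -0.094 ± 0.048 did not pass (adjusted p = 0.20), and passed without replicate 3 of 48 h, which enters the shared spread (adjusted p = 0.042). RefSeq lists 7 pseudogenes of CKS1B by symbol, against 1 each for CCNB2, CDC20 and CDCA3, and the CKS1B probe set is assigned to a noncoding variant of the gene. Whether the probes tell these copies apart was not tested, so the CKS1B values are uncertain in this respect. Likewise CCNA2 overlaps EXOSC9 in the annotation, CDC25C overlaps FAM53C, and CDCA3 overlaps GNB3, and signal of these neighbours was not tested.

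CDC20 activates the APC/C from metaphase on and is the target of the spindle checkpoint. It scored 1.11, 1.18 and 1.15 at 48 h, 1.87, 1.82 and 1.85 at 24 h, and 2.08 and 2.00 at 0.5 h. All 3 times were separate. CDC20 was lower by 0.89 ± 0.033 at 48 h than at 0.5 h (adjusted p = 6.9e-13), the 17th largest fall of all genes, and by 0.70 ± 0.030 than at 24 h, the largest second-day fall of the 8. Its scores up to 12 h were less even than those of the cyclins, with 2.01 at 1 h, 1.91 at 2 h, 2.03 at 4 h, 2.00 at 6 h, 1.89 at 8 h and 2.02 at 12 h. The 18 h array read 1.83, within the range of the 24 h arrays, and the 24 h difference from 0.5 h was -0.19 ± 0.033 (adjusted p = 5.3e-04).

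CDCA3 encodes an F-box-like protein that helps degrade WEE1, and is itself a target of the APC/C. It scored 0.41, 0.50 and 0.48 at 48 h, 0.89, 0.92 and 0.85 at 24 h, and 0.94 and 1.03 at 0.5 h. GTSE1, a microtubule-associated protein that also restrains p53 in G2, scored 0.53, 0.52 and 0.49 at 48 h, 1.02, 1.13 and 1.10 at 24 h, and 1.20 and 1.16 at 0.5 h. Both genes had separate arrays at the 3 times, a pattern whose share of all genes was not counted. They were lower at 48 h than at 0.5 h by 0.52 ± 0.036 (CDCA3, adjusted p = 2.8e-09) and 0.67 ± 0.034 (GTSE1, adjusted p = 3.8e-11). Their 24 h differences from 0.5 h, -0.096 ± 0.036 and -0.094 ± 0.034, did not pass (adjusted p = 0.077 and 0.068). After quantile normalisation both passed narrowly (adjusted p = 0.0496 for CDCA3 and 0.0454 for GTSE1).

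**Figure D3:**
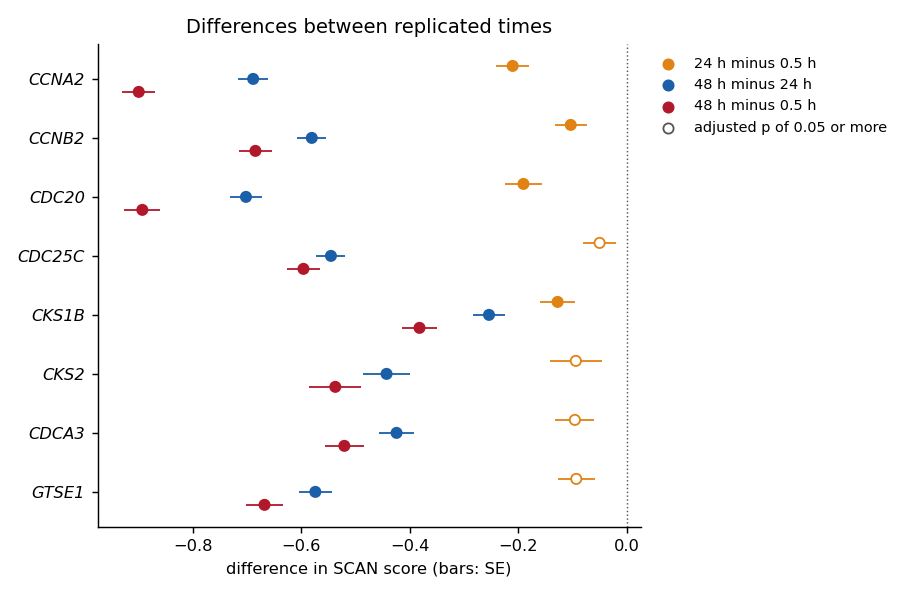
Differences in SCAN score (horizontal axis) of 24 h minus 0.5 h, 48 h minus 24 h and 48 h minus 0.5 h for each gene, with bars for the SE; open circles did not pass an adjusted p of 0.05. The differences of 24 h from 0.5 h lie between -0.21 and -0.051, and those of 48 h from 24 h between -0.70 and -0.25.

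The step of the second day (48 h minus 24 h) was set against that of the first day (24 h minus 0.5 h) gene by gene, a contrast chosen after the scores had been seen. It was lower in 7 of 8 genes, where 3.9% of all genes were called lower, and the median was -0.48 against -0.0037 over all genes. The value was -0.51 ± 0.054 for CDC20 and -0.49 ± 0.048 for CDC25C. CKS1B did not pass, at -0.13 ± 0.052 (adjusted p = 0.18). In CKS1B 66.5% of the difference between 48 h and 0.5 h fell between 24 h and 48 h, the smallest share of the 8.

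The fall was already visible on the single 18 h array, which was assumed to vary like the replicated times. Against 0.5 h, 6 of 8 genes were called lower at 18 h, where 5.47% of all genes were, with a median of -0.20 against -0.0040 over all genes. CCNA2 led with -0.32 ± 0.041 (adjusted p = 5.1e-05), followed by GTSE1 with -0.23 ± 0.046 (adjusted p = 0.0030). CKS1B (-0.13 ± 0.043, adjusted p = 0.057) and CKS2 (-0.19 ± 0.064, adjusted p = 0.065) did not pass. CKS1B passed with dim genes left out (adjusted p = 0.043) and with a trended robust prior (adjusted p = 0.026), and CKS2 after quantile normalisation (adjusted p = 0.040) and without replicate 1 or 3 of 48 h (adjusted p = 0.048 and 0.0054). The CDCA3 call (-0.16 ± 0.048, adjusted p = 0.037) ended without replicate 3 of 0.5 h (adjusted p = 0.215) and over all probe sets (adjusted p = 0.0718). The 18 h array lay below all 3 arrays of 24 h in 6 of 8 genes, all but CDC20 and CKS1B, a pattern seen in 30.8% of all genes.

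At 12 h, also a single array, the 8 genes differed from 0.5 h by -0.021 (CDC20) to 0.14 (CDC25C). Their median difference was 0.024, against -0.0047 over all genes. The middle window (4 to 12 h, 4 arrays) minus the early window (0.5 to 2 h, 4 arrays) gave 0 calls among the 8 with limma, 0 at an unadjusted p under 0.05, where 0.641% of all genes were called lower. The differences were -0.014 (CDC20) to 0.10 (CDC25C). Their SE, 0.060 (CKS1B) to 0.15 (CDC20), includes the fall among the later arrays of the same fit. The 0 calls thus cannot decide whether changes of this size took place. The late window (18 to 48 h, 7 arrays) minus the middle window gave 8 of 8 lower, where 10.2% of all genes were, with a median of -0.40 against -0.0011. All 8 were also called with the 48 h arrays left out of the late window, at differences of -0.30 (CCNA2) to -0.14 (CDC20). With 4 h counted as early and 12 h as late, 0 of 8 passed (adjusted p between 0.086 and 0.35), and the CDC20 call also ended without any 1 of the 4 h, 6 h and 12 h arrays and without replicate 2 or 3 of 48 h (adjusted p up to 0.0762).

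Over the whole time course, a spline in log2 of time called 8 of 8 genes, where 33.9% of all genes were called. The largest distance of a time mean from the mean over the 10 times lay at 48 h in all 8 genes. It exceeded 2 times the noise threshold in 8 of 8, against 15.6% of all genes. The distance was 0.79 in CCNA2, or 12.9 times its threshold, and 0.33 in CKS1B, or 5.07 times. As a description, the time means of the genes correlated with each other at 0.93 to 0.99 over 10 times (28 pairs, median 0.96), points that share the same arrays. Over the 7 times from 0.5 to 12 h the same pairs ran from -0.55 to 0.82 (median 0.34).

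Genes with the most similar profile, by Pearson correlation of their 10 time means with the mean profile of the 8, were DEPDC1 (r = 0.996), the checkpoint kinase BUB1 (0.996), MKI67, the Ki-67 antigen (0.995), the checkpoint kinase TTK (0.995), the spindle kinesins KIF11 (0.995) and KIF4A (0.994), CDCA8, the passenger protein borealin (0.993), and PRC1, which bundles midzone microtubules (0.993). MKI67 was lower by 0.98 ± 0.029 at 48 h than at 0.5 h, and DEPDC1 by 0.73 ± 0.035.

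CDK1 and CCNB1 also had their lowest arrays at 48 h, while CCNB3, the remaining B-type cyclin, was close to 0 throughout. CDK1 scored 0.95, 0.91 and 0.89 at 48 h, 1.54, 1.53 and 1.49 at 24 h, and 1.67 and 1.70 at 0.5 h, and was lower by 0.77 ± 0.031 at 48 h than at 0.5 h (adjusted p = 1.9e-12). CCNB1, cyclin B1, scored 1.09, 1.07 and 1.08 at 48 h, 1.65, 1.76 and 1.65 at 24 h, and 1.86 and 1.88 at 0.5 h, with a difference of -0.79 ± 0.035 (adjusted p = 4.7e-12). Neither gene's arrays overlapped between these times, a pattern whose share of all genes was not counted. Of 7 measured genes of the cyclin and CDK core, 4 were lower and 0 higher at 48 h than at 0.5 h, against 13.1% and 15.5% of all genes. Among them CCNF, cyclin F, was at -0.46 ± 0.032. CCNB3 scored between -0.0092 and 0.13 on all arrays, and its difference of -0.059 ± 0.031 did not pass (adjusted p = 0.19). The CDK-activating kinase CDK7 was higher at 24 h than at 0.5 h by 0.14 ± 0.036 (adjusted p = 0.0083) and lower at 48 h than at 24 h by 0.10 ± 0.032 (adjusted p = 0.044), so that 48 h and 0.5 h differed by 0.043 ± 0.036 (adjusted p = 0.42).

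The genes that set the CDK1 switch did not share 1 time course. Of 8 measured, 6 were lower at 48 h than at 0.5 h, against 13.1% of all genes, and 1 was higher, a share near the 15.5% of all genes. PLK1, the polo-like kinase that acts on CDC25C and WEE1, scored 1.48, 1.57 and 1.47 at 48 h, 2.31, 2.38 and 2.39 at 24 h, and 2.46 and 2.46 at 0.5 h. It fell on the second day, by 0.85 ± 0.031, as CDC25C did. WEE1, the inhibitory kinase, instead fell within hours, with 1.99 and 2.04 at 0.5 h, 1.90 at 1 h, 1.62 at 2 h, 1.71 at 4 h, 1.62 at 6 h, 1.62 at 8 h, 1.69 at 12 h, 1.57 at 18 h, 1.68, 1.65 and 1.65 at 24 h and 1.43, 1.51 and 1.48 at 48 h. At 24 h it was lower than at 0.5 h by 0.36 ± 0.032 (adjusted p = 4.8e-07). MASTL, the Greatwall kinase that restrains the phosphatase opposing CDK1, was lower by 0.53 ± 0.032 at 48 h.

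The CDC25 phosphatases went 3 ways. CDC25A, which acts at G1/S as well as at mitosis and was added after its values had been seen, scored 0.36, 0.36 and 0.35 at 48 h, 0.44, 0.54 and 0.43 at 24 h, and 0.86 and 0.85 at 0.5 h. It was lower by 0.38 ± 0.034 at 24 h than at 0.5 h (adjusted p = 4.1e-07) and by a further 0.12 ± 0.030 at 48 h than at 24 h (adjusted p = 0.016). CDC25B, held to start CDK1 activation at the centrosome, scored 2.08, 2.03 and 2.05 at 48 h, 1.96, 1.99 and 1.98 at 24 h, and 1.76 and 1.82 at 0.5 h. It was higher by 0.26 ± 0.031 at 48 h than at 0.5 h (adjusted p = 2.9e-06), while CDC25C was lower by 0.60 ± 0.030 (adjusted p = 3.0e-11).

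**Figure D4:**
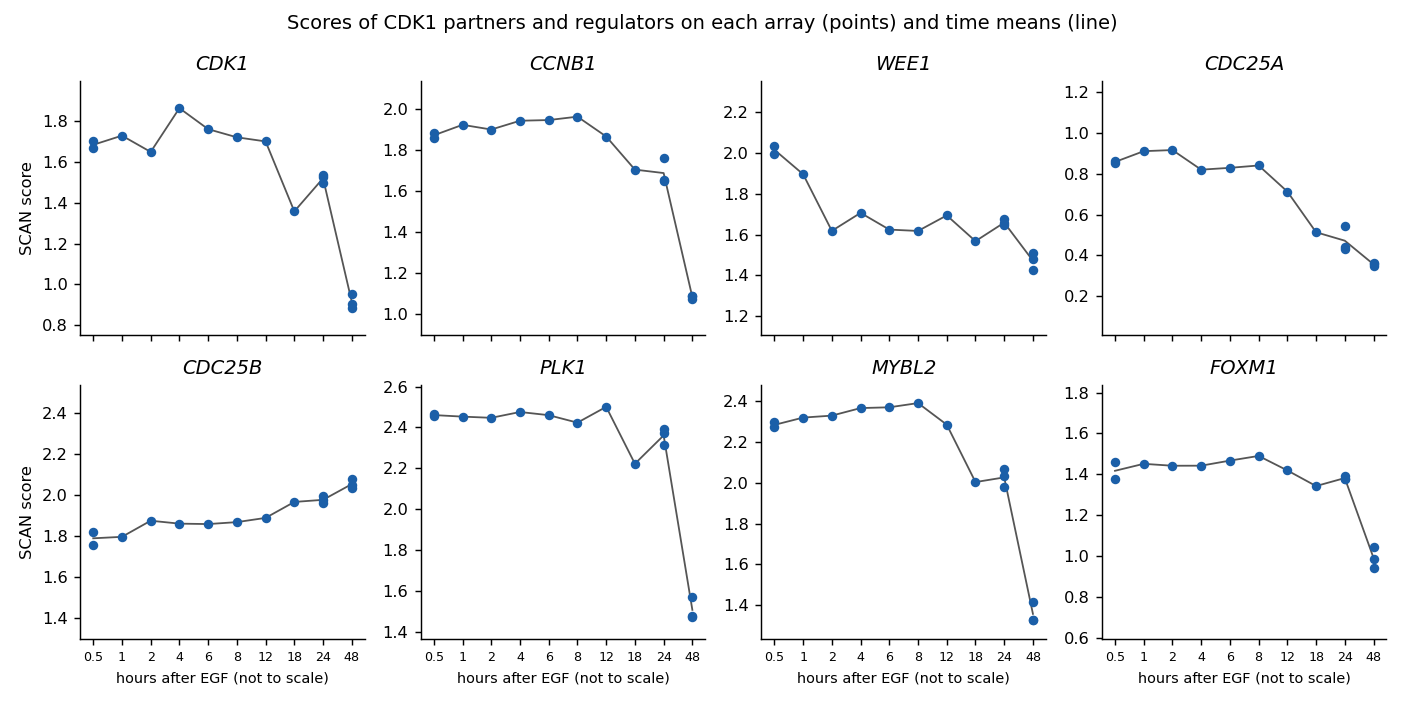
Scores of CDK1, CCNB1, WEE1, CDC25A, CDC25B, PLK1, MYBL2 and FOXM1 (vertical axis, SCAN score, each panel spanning the same number of units) against hours after EGF (equal spacing), with points for arrays and a line through time means. WEE1 reads lower from 2 h on and CDC25A from 12 h on, each first seen on a single array. CDC25B is highest at 48 h, and CDK1, CCNB1, PLK1, MYBL2 and FOXM1 have their lowest arrays at 48 h.

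CDC20 fell further than any measured subunit of the complex it activates. Of 14 measured APC/C subunits 5 were lower and 2 higher at 48 h than at 0.5 h, where 13.1% of all genes were lower and 15.5% higher. The 2 called higher were thus a share near that of all genes. The median of the subunits was -0.047, against -0.89 ± 0.033 for CDC20. The most lowered were CDC27 (-0.19 ± 0.035), ANAPC15 (-0.19 ± 0.032) and ANAPC7 (-0.17 ± 0.029), and those called higher were CDC16 (0.16 ± 0.036) and ANAPC16 (0.11 ± 0.032). Among 10 measured activators, E2 enzymes, inhibitors and substrates of the APC/C, 8 were lower and 0 higher. They included SGO1, the shugoshin that guards centromere cohesion (-0.86 ± 0.031), ESPL1, the protease separase (-0.70 ± 0.032), and the checkpoint protein MAD2L1 (-0.66 ± 0.038). FZR1 (CDH1), the activator that takes over from CDC20 late in mitosis, was chosen after its values had been seen and differed by -0.079 ± 0.036 (adjusted p = 0.11). The SCF-SKP2 partners of CKS1B were measured in part, with SKP1 at -0.075 ± 0.037 (adjusted p = 0.15) and CUL1 at -0.066 ± 0.030 (adjusted p = 0.12).

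Of a list of MuvB, DREAM, MYBL2, FOXM1 and NF-Y genes 11 were measured, and 8 were lower and 2 higher at 48 h than at 0.5 h, where 13.1% of all genes were lower and 15.5% higher. NFYA, NFYB and NFYC, the subunits of NF-Y, and E2F4 and E2F5 were not measured under a name here, so the list holds no gene of the factor that binds CCAAT. MYBL2 (B-MYB), which activates promoters of G2 and M phase genes with the MuvB core, was lower by 0.92 ± 0.035. FOXM1, which joins it in G2, was lower by 0.43 ± 0.035. Whether either acts on the 8 genes in these cells was not tested. MYBL2 scored 1.33, 1.42 and 1.33 at 48 h, 1.98, 2.07 and 2.03 at 24 h, and 2.29 and 2.27 at 0.5 h. These times did not overlap in MYBL2, and the share of all genes with such a pattern was not counted. The pocket proteins went opposite ways, with RBL1 (p107) lower by 0.58 ± 0.031 and RBL2 (p130), the pocket protein of DREAM in resting cells, higher by 0.23 ± 0.031 (adjusted p = 1.9e-05). LIN37, a MuvB subunit, was higher by 0.15 ± 0.030 (adjusted p = 0.0012).

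Other genes of mitosis mostly had a larger fall on the second day than on the first, as the 8 genes had, and most S phase genes had the larger fall on the first. At 48 h against 0.5 h, 13.1% of all genes were called lower. All 10 mitotic kinases were called lower at 48 h than at 0.5 h (median -0.71), with medians of -0.20 for the first day and -0.54 for the second. Examples were PBK (-0.90 ± 0.038), BUB1 (-0.87 ± 0.034) and AURKB (-0.86 ± 0.030). All 16 measured mitotic kinesins and cytokinesis genes were lower (median -0.74), with medians of -0.14 and -0.57 for these days, among them KIF11 (-0.86 ± 0.030), KIF14 (-0.85 ± 0.028) and KIF18B (-0.85 ± 0.028). All 16 measured S phase genes were lower too (median -0.70), but with medians of -0.42 for the first day and -0.28 for the second. GINS2 (-1.02 ± 0.030), TYMS (-0.92 ± 0.030) and CDC6 (-0.92 ± 0.038) were the most lowered of these. CDC6 fell more on the first day (-0.61, then -0.31). GINS2 (-0.46, then -0.56) and TYMS (-0.42, then -0.51) were exceptions with the larger fall on the second day, as were RRM2 and GINS1. The step of the second day was called lower than that of the first in 7 of 10 kinases and 14 of 16 kinesin and cytokinesis genes. Of all genes 3.9% were called so, and of the S phase genes 0 of 16, which is near that share. The other way, 4 of the 16 S phase genes were called, against 306 of all 14675 genes. The other 6 CDCA genes, which share with CDCA3 a name and not a family, were all called lower at 48 h, against 13.1% of all genes. CDCA8 was at -0.90 ± 0.036, CDCA2 at -0.76 ± 0.032 and CDCA7 at -0.54 ± 0.035.

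**Figure D5:**
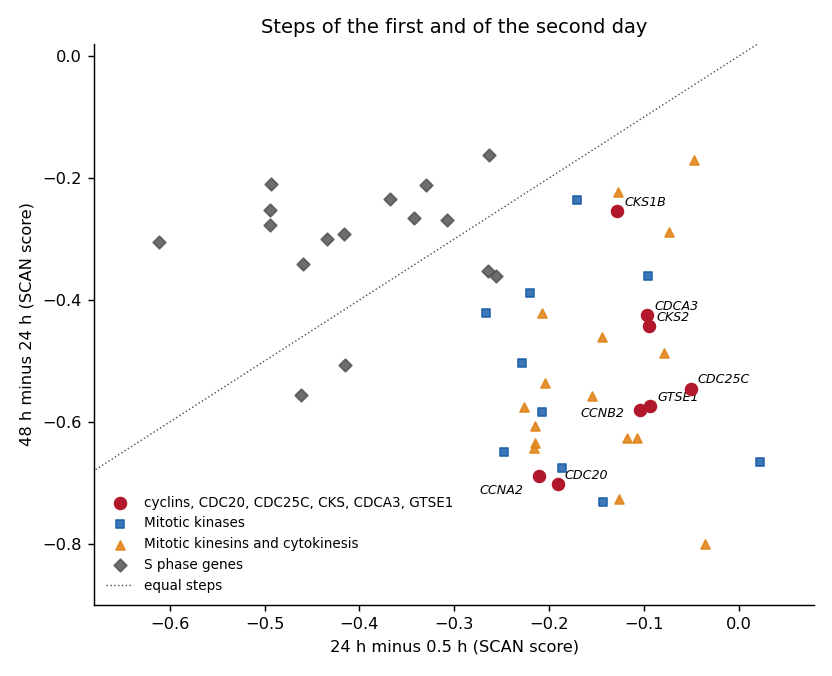
Difference of 48 h minus 24 h (vertical axis, SCAN score) against that of 24 h minus 0.5 h (horizontal axis) for the 8 genes (large circles, named), mitotic kinases (squares), mitotic kinesins and cytokinesis genes (triangles) and S phase genes (diamonds); both axes use the 24 h arrays, and the dotted line marks equal steps. The 8 genes lie below the line with second-day steps of -0.70 to -0.25, while most S phase genes lie above it.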

How the data were processed

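The deposited values are SCAN scores (Single Channel Array Normalisation), made by the authors array by array: the GC content of the probes was corrected for and the array standardised, and arrays were not normalised to each other. Probes had been mapped with the annotation of the manufacturer, and arrays judged to be outliers had been removed. The version of SCAN is not given in the sources that were used, and the number of arrays limits the precision.

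Of 39937 probe sets, 15426 had 1 gene symbol in the platform annotation and 24511 none. For the 534 genes with several probe sets the one with the highest mean was kept, which left 14675 genes, without a filter on dim genes. Tests were two-sided and run in limma 3.58.1 (R 4.3.3; lmFit, then eBayes). Times were compared in a fit with a coefficient for each of the 10 times, with 5 residual degrees of freedom from 0.5, 24 and 48 h, so that times with 1 array were assumed to vary like these. A fit of 3 windows treats arrays of the same time as independent, so that its SE and p-values can be too small. It also counts change between the times of a window as spread, which makes them larger. In the 8 genes the SE of middle minus early was 0.060 (CKS1B) to 0.15 (CDC20). That of 48 h minus 0.5 h in the fit of times was 0.030 (CCNB2) to 0.048 (CKS2). The time course was tested by F on a cubic spline (natural) with 3 degrees of freedom. The peak distance was called above 2 times the 0.95 quantile of replicate standard deviations in 14 groups of similar mean, with no p-value. The script was tested on simulated data.

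The 8 genes and the 11 gene lists and 4 marker lists were chosen with earlier results of these data known. From each list, up to 3 genes with the largest difference between 48 h and 0.5 h were named, and any that moved opposite to most called genes of its list, with the 8 genes of most similar profile. Of the gene lists, CCNB3, CDK7, CDC25A, FZR1, RRM2 and GINS1 were named outside this rule. Alternatives were quantile normalisation, centring, a filter on dim genes, all probe sets, a trended robust prior, the replicate number as a block, each array left out, other window limits and other spline and threshold settings.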

Additional observations from a re-analysis of the deposited data

How the results depend on the processing

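The calls of the 8 genes at 48 h against 0.5 h and against 24 h, and over the time course, held in every alternative tried, and 0 differences turned sign in a called gene. Single-gene calls that changed at 18 h, at 24 h and between windows are given with those results or with the block and the prior. The 12 h contrast gave 1 called gene of the 8 (CDC25C) after centring. Moving 4 h and 12 h between windows left 0 of the 8 genes called for late minus middle, with 921 of all genes, and 0 of all genes for middle minus early. Leaving out 1 array at a time gave 3 to 5 of the 8 genes at 24 h, 5 to 7 at 18 h and 7 to 8 for late minus middle.

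Counts over all genes moved more. With all probe sets tested they were 6806 for 48 h minus 0.5 h (4199 before), 3966 for 24 h minus 0.5 h (2526), 355 for middle minus early (232), 4355 for late minus middle (2806) and 8501 for the time course (4970), since more features were tested. Leaving out single arrays gave 1472 to 2469 genes for 24 h minus 0.5 h, 250 to 530 for 12 h minus 0.5 h (496), 141 to 256 for middle minus early and 489 to 762 for the step of the second day minus that of the first (879). Late minus middle called 1829 genes once the 48 h arrays were left out, an alternative chosen after seeing the data. The peak distance called 850 genes at 3 times the threshold and 3968 with the 0.5 h mean as reference, against 2294. The cause of these other changes was not tested.

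Arrays with the same replicate number did not deviate together (correlations of -0.030 to 0.030), so the numbers were not taken as pairs. With the replicate block, 191 genes were called at 12 h, 868 at 18 h (1563 without the block) and 124 for middle minus early. The 18 h call of CDC25C ended under the block (adjusted p = 0.0552), as did the late minus middle call of CDC20 (adjusted p = 0.070), and the 24 h difference of CDCA3 passed (adjusted p = 0.0444). A trended robust prior ended the late minus middle calls of CCNB2 and CDC20 (adjusted p = 0.0523 and 0.0921).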

Other observations

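Of 7 measured G1 cyclins and kinases, 4 were lower and 1 higher at 48 h than at 0.5 h, against 13.1% and 15.5% of all genes, so that the share called higher was near that of all genes. CCNE2, cyclin E2, was lower by 0.81 ± 0.034, most of it by 24 h (-0.55 ± 0.034), CCNE1 by 0.29 ± 0.029 and CDK6 by 0.19 ± 0.032. The 1 called higher was CCND1, cyclin D1, by 0.12 ± 0.034 (limma, adjusted p = 0.014). Of the 3 measured genes of the SCF-SKP2 and CDK inhibitor list, the inhibitor gene CDKN2A was higher by 0.10 ± 0.031 (adjusted p = 0.015).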
